A study of Mus musculus with 12 samples.

Results

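Mature microRNAs (miRNAs) were compared between 4 ileum libraries from mice given cecal material and 4 from mice given an antibiotic, out of 12 libraries in the series. The compared features were the 226 of 566 mouse probes whose deposited signal exceeded 32 in at least 4 of the 12 libraries. All mice were male NOD/ShiLtJ, an inbred strain that develops autoimmune diabetes, and were sampled at age P23. The groups were cecal transfer, antibiotic and control, with 4 libraries each, and control is used here as a side measurement. The labels call the transfer group a restoration, and do not say whether those mice had also been given the antibiotic. They name neither the drug nor its dose, and abbreviate the antibiotic course as 1PAT. Dams were randomised with their litters, and the labels do not say which library came from which litter. The p-values therefore cover only the spread between these libraries, some of which may be litter mates. Tissue is labelled as ileum, whereas the design text of the series speaks of intestinal epithelial cells. Each library carries the same batch label.

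A miRNA is cut from a hairpin precursor, loaded into an Argonaute protein and guided to messenger RNAs mainly by its seed, the bases from position 2 to position 8 of its 5′ end. miRNAs with the same seed form a family and can share targets, and hairpins that lie close together on a chromosome are often transcribed as 1 precursor. In the gut wall, the miR-200 family and miR-192 and miR-194 belong to epithelial cells, miR-143 and miR-145 to smooth muscle and fibroblasts, and miR-142, miR-150, miR-155 and miR-223 to leukocytes. Signal from a whole tissue mixes these sources, and fewer cells of a type cannot be told apart from less RNA per cell.

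Mature sequences from RefSeq (GRCm38.p6) were matched to 95 of the 226 tested probes, and those shown are the ones on which the results below turn. Seeds are in capitals and each sequence runs 5′ to 3′. The first 3 share the seed AUUGCAC, the next 2 the seed ACCCUGU and the 2 after them the seed AGCAGCA; in each of these sets at least 1 miRNA was higher after cecal transfer and another was not. The pairs of the miR-29 and miR-181 families follow, whose members moved in opposite directions. The miR-200 family is shown with its 2 seeds. The last 4 are miR-194, the enterocyte miRNA with the largest loss of signal, miR-21, and the 2 miRNAs of the miR-23b cluster that were higher while miR-23b itself was lower.
miR-25: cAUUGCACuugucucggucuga
miR-32: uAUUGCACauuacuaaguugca
miR-367: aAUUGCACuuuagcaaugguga
miR-10a: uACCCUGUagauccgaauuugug
miR-10b: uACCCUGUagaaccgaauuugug
miR-322: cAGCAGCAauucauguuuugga
miR-497: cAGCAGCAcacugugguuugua
miR-29b: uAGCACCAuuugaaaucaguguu
miR-29c: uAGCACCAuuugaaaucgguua
miR-181a: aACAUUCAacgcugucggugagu
miR-181c: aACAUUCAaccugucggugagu
miR-200b: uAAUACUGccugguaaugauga
miR-200c: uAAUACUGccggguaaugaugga
miR-429: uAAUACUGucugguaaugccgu
miR-200a: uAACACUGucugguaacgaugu
miR-141: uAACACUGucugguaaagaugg
miR-194: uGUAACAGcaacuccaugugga
miR-21: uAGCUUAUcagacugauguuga
miR-27b: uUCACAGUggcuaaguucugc
miR-24: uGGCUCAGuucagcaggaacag

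The groups differed in recovered total count, called depth here. Where this difference comes from was not tested. Recovered counts per library totalled 280114 to 393551 in cecal transfer libraries, 120235 to 148297 in antibiotic libraries and 169844 to 274302 in control libraries. The means were 327366 ± 52206 in cecal transfer and 136539 ± 12394 in antibiotic libraries (SD, n = 4 each, two-sided exact permutation p = 0.0286, the smallest that 4 against 4 can give). The 33 herpesvirus probes, which have no target in uninfected mice, measured background. Their median per library averaged 7.36 ± 1.34 units of signal in cecal transfer and 10.5 ± 2.19 units in antibiotic libraries (exact permutation p = 0.0571). Depth and group cannot be told apart, since no library of either group fell within the other's range. At the background limit of 32 units, a library of the series held between 16.6 and 54.2 counts.

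**Figure D1:**
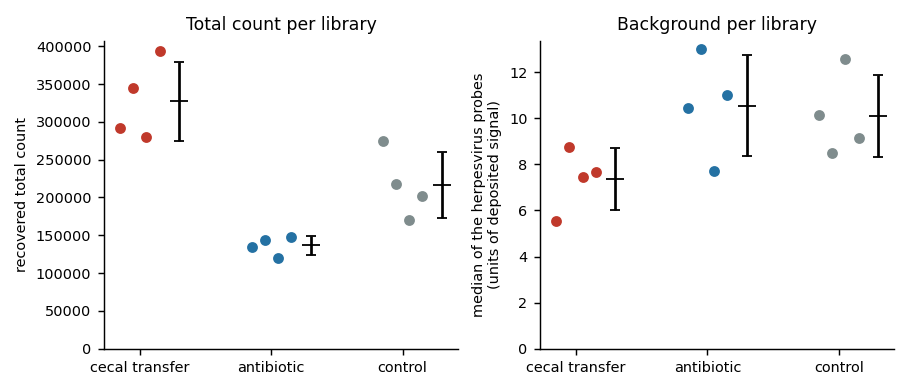
Recovered total count (left) and median signal of the 33 herpesvirus probes (right) in each library of the cecal transfer, antibiotic and control groups; points are libraries and bars the mean ± SD of 4. The cecal transfer libraries were the deepest, at 280114 to 393551 counts, against 120235 to 148297 in antibiotic libraries.

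The marker miRNAs of the gut wall were present in both groups. Summed over the 5 members of the miR-200 family, signal was 15142 to 17032 units in cecal transfer and 17958 to 19986 in antibiotic libraries. Summed over miR-192 and miR-194 it was 9524 to 12403 units in cecal transfer and 13864 to 16832 in antibiotic libraries. The 4 smooth muscle and fibroblast probes summed to 38972 to 46937 units in cecal transfer and 31953 to 34387 in antibiotic libraries, so markers of cells outside the epithelium were strong in all 8. Markers of neighbouring organs were weak: miR-122, the liver miRNA, had at most 69.5 units in cecal transfer and 47.2 in antibiotic libraries, and of 3 pancreatic probes 1 passed the filter.

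Of the 226 tested miRNAs, 74 differed between cecal transfer and antibiotic libraries at an adjusted p under 0.05 (32.7%), 45 of them higher (19.9%) and 29 lower (12.8%) after cecal transfer. The test was limma on log2(signal + 1) with Benjamini-Hochberg adjustment over the 226. The changes were mostly modest. The median size was 0.53 on the log2 scale among the miRNAs that were higher and 0.38 among those that were lower, and 8 higher and 5 lower miRNAs differed by at least 2-fold. The 8 include miR-367 and miR-377, which the filter admitted through the cecal transfer libraries alone. The 5 include miR-1968 and miR-490, for which the size of the fall is not resolved. In 76 miRNAs (33.6%) no value of one group lay within the range of the other, 45 higher (19.9%) and 31 lower (13.7%). The median log2 fold change of all 226 was 0.04. The split between higher and lower depended on the scaling: it was 22 higher and 32 lower when each library was centred on its median, 23 and 28 after quantile normalisation, and 41 and 33 with TMM factors. Of the 45 higher and 29 lower calls, 22 and 29 kept their call with median centring, 23 and 27 after quantile normalisation, and 29 and 23 by DESeq2 on the recovered counts.

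**Figure D2:**
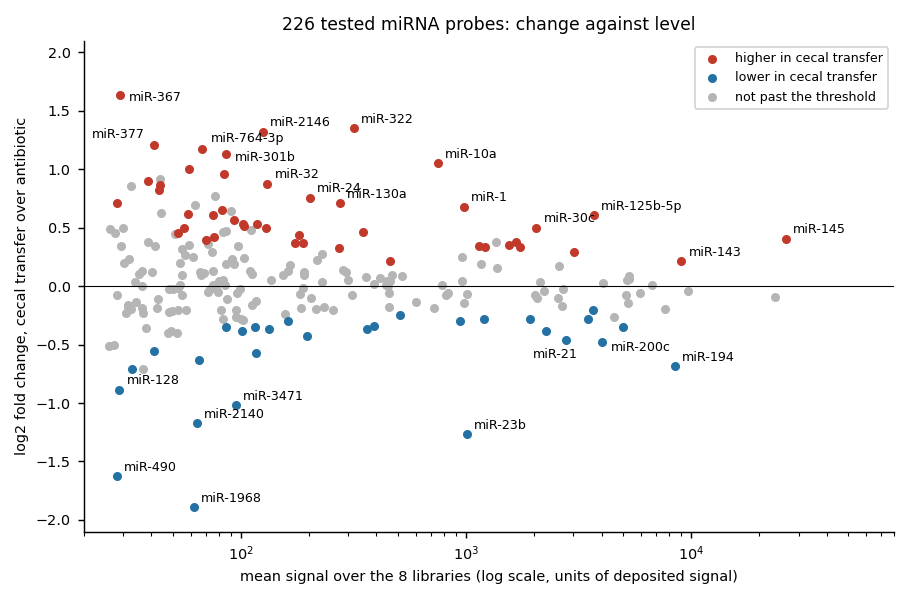
Log2 fold change (cecal transfer over antibiotic) of each of the 226 tested probes against its mean signal over the 8 libraries, on a log axis. The 45 higher and 29 lower miRNAs are coloured, and the sizes narrow towards strong probes, with miR-23b at −1.27 standing out among those near 1000 units.

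Calls were spread over the whole range of signal. Below a mean of 100 units 18 miRNAs were higher and 9 lower of 107 tested, from 100 to 1000 units 17 and 10 of 75, and above 1000 units 10 and 10 of 44. The filter admitted 2 miRNAs, miR-367 and miR-377, through the 4 cecal transfer libraries alone, so that these 2 had to differ; without them 72 calls remained, 43 of them higher. At the edge of the filter, the fourth-highest value was 32.5 units for miR-675-5p and 51.9 for miR-377 just inside, and 31.7 units for miR-208b just outside. With log2 depth as a covariate in the model 0 of 226 miRNAs passed by limma, and 35 had an unadjusted p under 0.05. By edgeR on the recovered counts 73 passed. In that depth fit 72 of the 74 kept their sign, while the median SE was 0.354 instead of 0.124.

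Among the largest falls were those of miR-1968, miR-490 and miR-23b. miR-1968 had 27, 31, 24 and 21.2 units in the cecal transfer libraries, against 87, 104, 90.4 and 110.2 in the antibiotic libraries. The highest value after cecal transfer lay far below the lowest after antibiotic, and the miRNA was lower (log2 fold change −1.89 with SE 0.17, adjusted p = 5.66e-06). miR-490, whose hairpin lies in an intron of the muscarinic receptor gene Chrm2, had 15.9, 14.8, 13.3 and 9.44 units in the cecal transfer libraries, against 45.2, 50.3, 36.5 and 39.4 in the antibiotic libraries. It was lower (log2 fold change −1.62 with SE 0.24, adjusted p = 0.000348), and its cecal transfer values stood close to the herpesvirus background. After cecal transfer both lay under the limit of 32 units in every library, so how many-fold they fell is not resolved. miR-23b had 588, 628, 631 and 518 units in the cecal transfer libraries, against 1284, 1296, 1756 and 1390.3 in the antibiotic libraries. The groups lay far apart and miR-23b was 2.41-fold lower (log2 fold change −1.27 with SE 0.14, adjusted p = 4.22e-05), the largest fall of any miRNA with a mean above 100 units; with log2 depth in the model its log2 fold change was −0.29.

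Further falls of at least 2-fold were those of miR-2140, on a list of retired miRNA names, and miR-3471. miR-3471 had 55.5, 73.5, 72.9 and 49.6 units in the cecal transfer libraries, against 118, 135, 146 and 110.2 in the antibiotic libraries and was 2.03-fold lower (log2 fold change −1.02 with SE 0.16, adjusted p = 0.000379). miR-2140 averaged 39.1 ± 10.5 units in cecal transfer and 88.6 ± 18.7 in antibiotic libraries (SD, n = 4 each, log2 −1.17). Both sets of values were separated without overlap. Smaller falls were measured for miR-128, a miRNA of neurons, with 15.1, 20.9, 20.7 and 22.4 units after cecal transfer, against 45.2, 40.6, 25 and 40.9 after antibiotic. Its log2 fold change was −0.89 (adjusted p = 0.0101). Every cecal transfer value of miR-128 lay under the background limit, so how many-fold it fell is not resolved. It passed the filter in exactly 4 libraries, none of them from cecal transfer. miR-139-5p, from an intron of the phosphodiesterase gene Pde2a, had 50.7, 47.9, 48.1 and 57.2 units after cecal transfer, against 85.2, 68.2, 80.8 and 85 after antibiotic (log2 −0.63, adjusted p = 0.00146). miR-2132 (−0.57), on the same list as miR-2140, and miR-421 (−0.70) were also lower. For miR-421, antibiotic replicate 2, at 26 units, lay among the cecal transfer values. The call of miR-421 was lost in 4 of the 12 fits that left out 1 library.

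The largest rises included several miRNAs near background. miR-367, of the miR-302/367 cluster known from pluripotent stem cells, had 63.4, 35.8, 38.1 and 36.6 units in the cecal transfer libraries, against 8.70, 6.50, 23.1 and 20.5 in the antibiotic libraries (log2 fold change 1.63 with SE 0.38, adjusted p = 0.00594). Its antibiotic values were partly at the level of the herpesvirus probes, and cecal transfer replicate 1 stood above the other 3. miR-377, of the imprinted Dlk1-Dio3 region, had 62.6, 51.9, 60.5 and 52.5 units in the cecal transfer libraries, against 13.9, 27.6, 28.8 and 29.9 in the antibiotic libraries (log2 fold change 1.20 with SE 0.24, adjusted p = 0.0024). Both passed the filter through the cecal transfer libraries alone, as stated above. miR-764-3p, from an intron of the serotonin receptor gene Htr2c, had 88, 81.6, 109 and 93.8 units in the cecal transfer libraries, against 45.2, 39, 32.7 and 47.2 in the antibiotic libraries. It was 2.25-fold higher (log2 fold change 1.17 with SE 0.16, adjusted p = 0.000154) with no overlap between the groups.

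Among better measured miRNAs, miR-322 had 465, 353, 495 and 481 units in the cecal transfer libraries, against 146, 312, 159.6 and 124 in the antibiotic libraries. It was 2.56-fold higher (log2 fold change 1.35 with SE 0.29, adjusted p = 0.004); antibiotic replicate 2 stood above the other antibiotic libraries, yet below every cecal transfer library. miR-2146 had 170.5, 167, 189 and 188 units in the cecal transfer libraries, against 90.4, 68.2, 73.1 and 55.1 in the antibiotic libraries and was 2.50-fold higher (adjusted p = 0.000125). With miR-2140, miR-2132 and miR-720 it was on the list of retired miRNA names. Of the 7 tested probes on that list 1 was higher and 2 lower, beside 19.9% higher and 12.8% lower of all tested miRNAs. Whether these probes measure miRNAs was not tested. miR-301b had 114, 122, 120.2 and 116 units in the cecal transfer libraries, against 55.7, 60.1, 40.4 and 59.8 in the antibiotic libraries. Its cecal transfer values were tightly grouped, and it was 2.19-fold higher (log2 fold change 1.13 with SE 0.14, adjusted p = 8.86e-05). miR-10a, encoded within the Hoxb gene cluster at chr11:96317186-96317208 on the plus strand, had 990.3, 919, 1038 and 1068 units in the cecal transfer libraries, against 417, 741, 438 and 402 in the antibiotic libraries. It was 2.07-fold higher (log2 fold change 1.05 with SE 0.18, adjusted p = 0.000837), and antibiotic replicate 2 was again the highest of its group. miR-362-3p (log2 1.00), miR-369-3p (0.96), miR-3472 (0.90), miR-32 (0.88), miR-762 (0.87) and miR-101a (0.82) were higher too, and in each of these 6 the groups did not overlap. The call of miR-762 was lost in 7 of the 12 fits that left out 1 library.

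**Figure D3:**
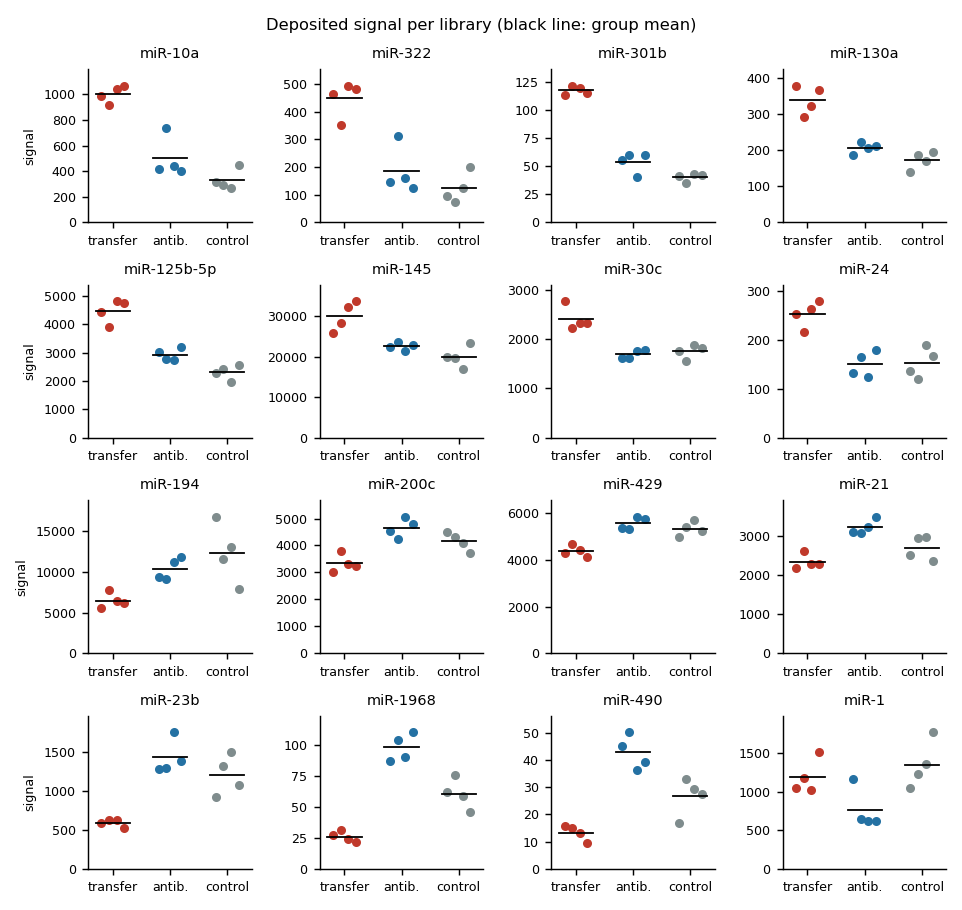
Deposited signal of 16 miRNAs in each library of the cecal transfer, antibiotic and control groups, on linear axes from 0; points are libraries and black lines group means. miR-10a, miR-322 and miR-301b were higher in every cecal transfer than in every antibiotic library, and miR-194, miR-200c, miR-23b and miR-1968 were lower.

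Of the 44 tested miRNAs with a mean above 1000 units 10 were lower. Among these 10, 4 were on the enterocyte and miR-200 lists, miR-194, miR-200c, miR-429 and miR-141. These lists held 2 and 5 tested miRNAs, all with a mean above 1000 units. miR-194, which is induced by the transcription factor HNF1-alpha during enterocyte differentiation, had 5555, 7826, 6371 and 6161 units in the cecal transfer libraries, against 9404, 9147, 11282 and 11778 in the antibiotic libraries. Every cecal transfer library lay below every antibiotic library, and miR-194 was 1.61-fold lower (log2 fold change −0.69 with SE 0.18, adjusted p = 0.0108). Its mean fell by 3925 units, which was 21.3% of all the signal lost by tested miRNAs. miR-192, which shares its hairpin cluster with miR-194 on chromosome 19, had 3969, 4577, 4119 and 3894 units in the cecal transfer libraries, against 4720.3, 4718, 5381 and 5054 in the antibiotic libraries. These ranges did not overlap either, but with a log2 fold change of −0.26 miR-192 missed the threshold (adjusted p = 0.0528). It passed with median centring (adjusted p = 0.0166), with TMM factors (0.0245) and by DESeq2 (0.0227), but not after quantile normalisation (0.15).

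In the miR-200 family, which maintains epithelial identity by repressing the transcription factors Zeb1 and Zeb2, 3 of 5 members were lower and 0 higher, beside 12.8% lower and 19.9% higher of all tested miRNAs. Among the 44 tested miRNAs with a mean above 1000 units, as in all 5 members, 10 were lower and 10 higher. The family's median log2 fold change was −0.28, against 0.04 over all tested miRNAs. miR-200c had 3027, 3786, 3324 and 3248 units in the cecal transfer libraries, against 4549.8, 4253, 5069 and 4785 in the antibiotic libraries (log2 fold change −0.48 with SE 0.08, adjusted p = 0.000837). miR-429 had 4313, 4706, 4415 and 4123 units in the cecal transfer libraries, against 5395, 5341, 5861 and 5771 in the antibiotic libraries (log2 fold change −0.35 with SE 0.06, adjusted p = 0.00103). In neither did the groups overlap, and the same held for miR-141 (1093, 1135, 1083 and 1047 units against 1303, 1238, 1269 and 1496, log2 −0.28, adjusted p = 0.0159). miR-200b (−0.08, adjusted p = 0.48) and miR-200a (0.04) did not pass. The split ran across seeds, since miR-200b shares AAUACUG with miR-200c and miR-429, and miR-200a shares AACACUG with miR-141. miR-200a and miR-141 differ at 2 positions counted from the 5′ end, C17A and U22G (miR-200a first). By hairpin cluster, miR-200c and miR-141 on chromosome 6 (chr6:124717914-124718390) were both lower, and of the 3 miRNAs on chromosome 4 (chr4:156053905-156055750) miR-429 alone was.

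Of the secretory and endocrine miRNAs, 0 of 3 passed, beside 32.7% of all tested miRNAs. miR-375, a miRNA of enteroendocrine and goblet cells, had 3071, 2523, 2227 and 2195 units in the cecal transfer libraries, against 3345, 2549.7, 2833 and 2537 in the antibiotic libraries (log2 −0.17, adjusted p = 0.284), with overlapping ranges. The 3 miRNAs of the miR-96/182/183 cluster, found in sensory epithelia, did not pass either, beside the same 32.7%. With 3 members in each list, these counts say little about the lists.

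Of the 4 tested smooth muscle and fibroblast miRNAs 3 were higher and 0 lower, beside 19.9% higher of all tested miRNAs. miR-145 had the highest signal of any probe, with 25938, 28178, 32318 and 33664 units in the cecal transfer libraries, against 22443, 23498, 21403 and 22883 in the antibiotic libraries. The lowest cecal transfer library stood above the highest antibiotic library (log2 fold change 0.41 with SE 0.10, adjusted p = 0.00606), and its gain of 7468 units was 39.0% of all signal gained. miR-143, which is transcribed together with miR-145, had 9654, 9330.3, 9850.4 and 10055 units in the cecal transfer libraries, against 8514, 8481, 7854 and 8668 in the antibiotic libraries (log2 0.21, adjusted p = 0.0134). miR-199a-3p was also higher (log2 0.33, adjusted p = 0.0112), with 1 antibiotic library above the lowest cecal transfer library, while miR-199a-5p from the opposite arm had 0.19 (adjusted p = 0.0931). With median centring none of the 3 passed: the adjusted p was 0.0702 for miR-145, 0.284 for miR-143 and 0.0873 for miR-199a-3p. With log2 depth in the model the log2 fold change was 0.07 for miR-145, 0.21 for miR-143 and 0.69 for miR-199a-3p. The sums of epithelial and smooth muscle markers moved in opposite directions in the same 8 libraries, and their part in each other's change was not tested.

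Of the 3 striated muscle miRNAs 1 was higher and 0 lower, beside 19.9% higher of all tested miRNAs. This was miR-1, which smooth muscle also expresses. It had 1048, 1180.5, 1016 and 1518 units in the cecal transfer libraries, against 1162, 651, 615 and 624 in the antibiotic libraries (log2 fold change 0.68 with SE 0.21, adjusted p = 0.022). Antibiotic replicate 1 lay among the cecal transfer values, far above the other 3 antibiotic libraries. The call of miR-1 was lost with median centring (adjusted p = 0.0602) and in 4 of the 12 fits that left out 1 library. miR-133a, with which miR-1 is cotranscribed in muscle, had 158, 198, 187 and 204 units in the cecal transfer libraries, against 193, 203, 156 and 206 in the antibiotic libraries. These overlapped (log2 −0.02). miR-499 had 0.69 with overlapping groups (adjusted p = 0.188), its cecal transfer values running from 32.4 to 137 units.

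Of 5 leukocyte miRNAs 3 were higher and 0 lower, beside 19.9% higher of all tested miRNAs. miR-155, induced in activated lymphocytes and macrophages, had 159, 146, 155 and 144 units in the cecal transfer libraries, against 106, 120.2, 90.4 and 110.2 in the antibiotic libraries (log2 fold change 0.50 with SE 0.13, adjusted p = 0.0101). miR-150, of mature lymphocytes, had 536, 517, 457 and 467 units in the cecal transfer libraries, against 437, 404, 444 and 414 in the antibiotic libraries (log2 0.21, adjusted p = 0.0378). miR-142-5p was higher too (log2 0.50, adjusted p = 0.0331). In these 3 the groups did not overlap. miR-142-3p, the stronger arm of the same hairpin, had 0.25 (adjusted p = 0.395). miR-223, of neutrophils and other myeloid cells, had 313, 934, 336 and 311 units in the cecal transfer libraries, against 327, 335, 809.6 and 305 in the antibiotic libraries. One library of each group stood far above the rest, cecal transfer replicate 2 and antibiotic replicate 3, and no difference was detected (log2 0.04, SE 0.41). miR-150 and miR-142-5p each lost their call in 5 of the 12 fits that left out 1 library, and both lost it with median centring (adjusted p = 0.36 and 0.0686). miR-155 kept its call with median centring (adjusted p = 0.0256) but lost it after quantile normalisation (0.0507).

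The erythroid miRNAs were all 3 higher, beside 19.9% of all tested miRNAs: miR-486 by log2 0.61 (adjusted p = 0.0226), miR-451 by 0.34 (0.0461) and miR-144 by 0.33 (0.0433). miR-451 and miR-144 are neighbours on chromosome 11 and mark red blood cells. miR-451 had 1579, 1158, 1142 and 1205 units in the cecal transfer libraries, against 1211, 911, 896 and 992 in the antibiotic libraries. In all 3 the groups overlapped, and no erythroid miRNA passed with median centring (adjusted p from 0.0673 to 0.204). miR-122 of liver was higher at a low level, with 60.3, 69.5, 55.5 and 59 units in the cecal transfer libraries, against 43.5, 43.8, 42.3 and 47.2 in the antibiotic libraries (log2 fold change 0.45 with SE 0.13, adjusted p = 0.0159). It too missed the threshold with median centring (adjusted p = 0.0704). Of the endothelial pair from 1 hairpin, miR-126-3p had 0.06 and did not pass, whereas the weaker arm miR-126-5p was lower (log2 −0.37, adjusted p = 0.0109).

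Among inflammation-responsive miRNAs, miR-21, an abundant miRNA that is induced in inflamed and proliferating tissue, was lower. It had 2164, 2615, 2269 and 2275 units in the cecal transfer libraries, against 3087, 3063, 3211 and 3484 in the antibiotic libraries, with no overlap (log2 fold change −0.46 with SE 0.09, adjusted p = 0.00141). miR-146b was higher (log2 0.37, adjusted p = 0.0192), with antibiotic replicate 1 at 197 units just above the lowest cecal transfer library at 196. The call of miR-146b was lost with median centring (adjusted p = 0.139), after quantile normalisation (0.153) and by DESeq2 (0.104), and in 2 of the 12 fits that left out 1 library. Its relative miR-146a, which like miR-146b dampens Toll-like receptor signalling, had 245, 363, 316 and 303 units in the cecal transfer libraries, against 282, 271, 313 and 307 in the antibiotic libraries and did not pass (log2 0.05). The 2 mature sequences share the seed GAGAACU and differ at G18A and U21C (miR-146a first).

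Calls within a seed could go in both directions. The matched miRNAs held more calls than the rest, 52 of 95, beside 32.7% of all tested miRNAs, so seed counts run high. Called relatives without a matched sequence, such as miR-301b, are not in them. Of 22 seeds carried by at least 2 of the matched miRNAs, 16 had a call and 10 had at least 2. In 6 of these 10 the calls went in both directions. The seed AUUGCAC was carried by miR-25, which was lower, and by miR-32, which was higher. miR-367 carries it too, but passed the filter through the cecal transfer libraries alone and is not counted on here. miR-25 had 1839, 1719, 1690.5 and 1666 units after cecal transfer, against 2191, 1919.6, 2158 and 2162 after antibiotic (log2 −0.28, adjusted p = 0.0108). miR-32 had 172, 121, 206 and 185 units after cecal transfer, against 104, 78, 102 and 81.9 after antibiotic (log2 0.88, adjusted p = 0.00335). In both the groups were separate.

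The seed AGCAGCA of the miR-15/16 family, which restrains cyclins and other cell-cycle genes, was carried by 6 tested miRNAs. miR-322 was higher, as given above, and miR-497 was lower, with 34.1, 29.7, 34.8 and 33 units after cecal transfer, against 62.6, 40.6, 48.1 and 45.7 after antibiotic (log2 −0.55, adjusted p = 0.0187; 0.0735 with background subtraction). miR-16, the member of highest signal, had 6343, 7887, 7013 and 7391 units in the cecal transfer libraries, against 7778, 7948, 8342 and 8576 in the antibiotic libraries. It just missed the threshold (log2 −0.19, adjusted p = 0.0543), and miR-15a, miR-15b and miR-195 did not pass. miR-16 passed as lower with median centring (adjusted p = 0.0237), with TMM factors (0.0187), by edgeR (0.0217) and by DESeq2 (0.0353). After quantile normalisation the log2 fold change of miR-16 was 0.03.

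In the miR-10 pair a single base, U12A counted from the 5′ end (miR-10a first), separates the 2 mature miRNAs. The difference between their changes was not tested. miR-10b, from the Hoxd cluster, had 244, 244, 232 and 231 units in the cecal transfer libraries, against 292, 221, 292 and 298 in the antibiotic libraries. It did not pass (log2 −0.20, adjusted p = 0.159), against the 2.07-fold rise of miR-10a. Antibiotic replicate 2 was the lowest antibiotic library for miR-10b and the highest for miR-10a. The other Hox-cluster miRNAs, miR-196a (0.12) and miR-196b (0.77), did not pass.

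In the miR-29 family, which represses collagens and other matrix genes, miR-29c was higher and miR-29b lower. miR-29c had 1331, 1261, 1426 and 1389 units after cecal transfer, against 1024, 1028, 1075 and 1168 after antibiotic (log2 fold change 0.33 with SE 0.08, adjusted p = 0.00594). miR-29b had 852, 918, 786 and 803 units after cecal transfer, against 969, 966, 1058 and 1142 after antibiotic (log2 fold change −0.30 with SE 0.10, adjusted p = 0.0301). Neither pair of groups overlapped. miR-29a, which differs from miR-29c at C10U (miR-29a first), had 0.16 (adjusted p = 0.145). miR-29b and miR-29c derive from 1 locus on chromosome 1 (chr1:195037040-195037634), and miR-29b has a second locus beside miR-29a on chromosome 6. The call of miR-29c was lost with median centring (adjusted p = 0.0549), and both calls after quantile normalisation (0.118 for miR-29c and 0.105 for miR-29b).

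The miR-181 family, known for its part in lymphocyte development, split in the same way. miR-181a had 1732, 1625, 1826 and 1786 units after cecal transfer, against 1456, 1294, 1292 and 1423 after antibiotic (log2 fold change 0.35 with SE 0.08, adjusted p = 0.00466). miR-181c had 69, 73.5, 83.7 and 77.3 units after cecal transfer, against 101, 99.1, 92.3 and 94.5 after antibiotic (log2 fold change −0.35 with SE 0.12, adjusted p = 0.0385). Both pairs were free of overlap. miR-181a lost its call with median centring (adjusted p = 0.0718) and after quantile normalisation (log2 0.11, adjusted p = 0.347), while miR-181c kept its call in both. miR-181c lost its call in 7 of the 12 fits that left out 1 library. It also lost it by DESeq2 (adjusted p = 0.168), with thinning (0.0764) and with background subtraction (0.0735), where miR-181a kept its call. Opposite calls also occurred for miR-362-3p (log2 1.00) and miR-329 (−0.35), which share ACACACC.

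In the miR-130/301 family 2 of 4 members were higher and 0 lower, beside 19.9% higher of all tested miRNAs, with a median log2 fold change of 0.60. miR-130a had 379.8, 294, 322 and 369 units in the cecal transfer libraries, against 188, 222, 208 and 211 in the antibiotic libraries (log2 fold change 0.71 with SE 0.12, adjusted p = 0.000629). miR-130b, from the same hairpin cluster as miR-301b, had 0.48 and narrowly missed the threshold (adjusted p = 0.0512), and miR-301a had 0.09. miR-130a and miR-130b differ at U11A and A13G (miR-130a first).

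In the miR-99/100 and miR-125 families, expressed in stem and progenitor cells of several tissues, 3 of 6 tested probes were higher and 0 lower, beside 19.9% higher of all tested miRNAs. miR-125b-5p had 4439, 3900.2, 4805 and 4744 units in the cecal transfer libraries, against 3016, 2771, 2742 and 3184 in the antibiotic libraries. It was 1.52-fold higher (log2 fold change 0.61 with SE 0.09, adjusted p = 0.000348) with a clear gap between the groups, and its 1544 units were the second-largest gain of signal. miR-125a-5p (log2 0.38, adjusted p = 0.0183), which has the same seed CCCUGAG, and miR-100 (0.46, 0.00822) were higher. Both lost their call with median centring (adjusted p = 0.142 for miR-125a-5p and 0.0605 for miR-100), and miR-125a-5p also after quantile normalisation (0.145). miR-99a, 1 base from miR-100 (U16A, miR-99a first), had 0.28, and miR-99b had −0.20; neither passed. Both miR-101 probes, for a miRNA known to repress the histone methyltransferase Ezh2, were higher, beside the same 19.9%. miR-101b had 125, 116, 122 and 118 units after cecal transfer, against 81.7, 79.6, 94.2 and 77.2 after antibiotic (log2 fold change 0.53 with SE 0.10, adjusted p = 0.00179), and miR-101a is given above. In the miR-30 family 1 of 5 tested members was higher and 0 lower, beside the same 19.9% higher. This was miR-30c, with 2769, 2228, 2319 and 2323 units after cecal transfer, against 1614, 1619, 1769 and 1789 after antibiotic (log2 fold change 0.50 with SE 0.08, adjusted p = 0.000629).

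Among 8 tested probes for miRNAs of the miR-17-92 family of clusters, which promote proliferation, 5 were lower and 1 higher, beside 12.8% lower and 19.9% higher of all tested miRNAs, with a median log2 fold change of −0.28. The probe shared by miR-17 and miR-106a had 1870.4, 2157, 1909 and 1916 units in the cecal transfer libraries, against 2621, 2419.8, 2621 and 2579 in the antibiotic libraries (log2 fold change −0.38 with SE 0.07, adjusted p = 0.00103). The one shared by miR-20a and miR-20b had 3343, 3211, 3012 and 3033 units in the cecal transfer libraries, against 4023, 3445, 4059.5 and 3829 in the antibiotic libraries (log2 fold change −0.28 with SE 0.07, adjusted p = 0.0101). Neither overlapped, and these 2 probes cannot say which of their miRNAs changed. All 3 miRNAs of the paralog cluster on chromosome 5 (chr5:138165321-138165818) were lower, beside 12.8% of all tested miRNAs. Their log2 fold changes were −0.43 for miR-93, −0.34 for miR-106b and −0.28 for miR-25. miR-18a was higher, with 95.9, 55.3, 74.6 and 56 units after cecal transfer, against 62.6, 52, 34.6 and 34.6 after antibiotic (log2 0.62, adjusted p = 0.0433). Its groups overlapped, and the call was lost with median centring (adjusted p = 0.095) and in 6 of the 12 fits that left out 1 library.

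Hairpin neighbours did not always move together. Of 28 clusters with at least 2 tested miRNAs, taken as hairpins on the same strand within 10 kb of the next, 10 held at least 2 calls, and in 4 of them the calls went in both directions. A probe with hairpins in 2 clusters, such as that for miR-24, counts in both. On chromosome 13 (chr13:63300484-63301275, plus strand), miR-23b was lower while its neighbours were higher. miR-27b, a regulator of lipid metabolism in liver, had 202, 182, 216 and 231 units in the cecal transfer libraries, against 169, 148, 133 and 162 in the antibiotic libraries (log2 fold change 0.44 with SE 0.12, adjusted p = 0.0108). miR-24 had 254, 217, 263 and 279.6 units in the cecal transfer libraries, against 132, 166, 125 and 179 in the antibiotic libraries (log2 fold change 0.76 with SE 0.15, adjusted p = 0.0024). In all 3 the groups were separate. miR-27b lost its call with median centring (adjusted p = 0.0673), after quantile normalisation (0.126) and by DESeq2 (0.0519). The paralog cluster on chromosome 8 (chr8:84208518-84208921) held no call in the other direction: miR-27a was higher (log2 0.30, adjusted p = 0.00754, 0.0704 with median centring) and miR-23a had 0.17 (adjusted p = 0.0931). miR-24 is identical at both loci, so its signal cannot be assigned, and miR-27a and miR-27b differ by C19U (miR-27a first).

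**Figure D4:**
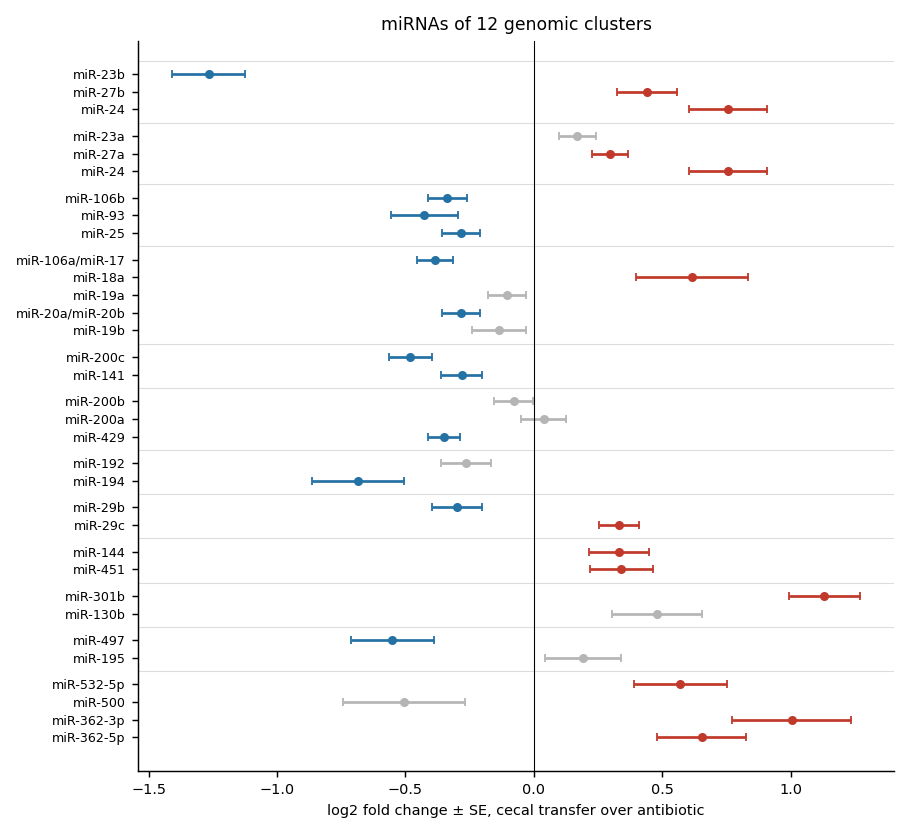
Log2 fold change ± SE (cecal transfer over antibiotic) of the miRNAs of 12 hairpin clusters, separated by grey lines; red is higher, blue lower and grey not past the threshold. miR-23b stands at −1.27 beside miR-27b at 0.44 and miR-24 at 0.76, and miR-29b at −0.30 beside miR-29c at 0.33.

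In the cluster of miR-362, miR-500 and miR-532 on the X chromosome 3 of 4 probes were higher and 0 lower, beside 19.9% higher of all tested miRNAs. miR-362-3p had 84.8, 78.2, 77.9 and 70.8 units after cecal transfer, against 27.8, 47.1, 34.6 and 47.2 after antibiotic (log2 fold change 1.00 with SE 0.23, adjusted p = 0.00594). miR-362-5p, from the other arm of that hairpin, had 0.65 (adjusted p = 0.0112) and miR-532-5p 0.57 (0.0262, and 0.0628 with median centring). miR-500 had the opposite sign (−0.51) and did not pass (adjusted p = 0.129). Within the imprinted Dlk1-Dio3 region on chromosome 12, calls were 2 higher and 2 lower among 19 tested probes, beside 19.9% higher and 12.8% lower over all tested miRNAs. miR-369-3p had 108, 107, 119 and 109 units after cecal transfer, against 53.9, 74.7, 40.4 and 61.4 after antibiotic (log2 fold change 0.96 with SE 0.16, adjusted p = 0.000629). The second higher call, miR-377, passed the filter through the cecal transfer libraries alone and so had to be higher, and the 2 that fell were miR-434-3p (−0.38) and miR-329 (−0.35).

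Of 9 let-7 probes 1 was lower and 0 higher, beside 12.8% lower and 19.9% higher of all tested miRNAs. This was let-7i, with 3471, 3482, 3393 and 3326 units in the cecal transfer libraries, against 4065, 3638, 4036 and 4051 in the antibiotic libraries (log2 fold change −0.21 with SE 0.06, adjusted p = 0.0156). Its groups were separate, yet its log2 fold change was 0.00 with log2 depth in the model, and it did not pass after quantile normalisation (adjusted p = 0.386). let-7g, which had the highest signal in the family, had 11008, 9301, 9063 and 8854 units in the cecal transfer libraries, against 9941, 8693, 10711 and 10012 in the antibiotic libraries, with overlap. Among 6 neural miRNAs miR-128 alone passed, and among the miR-148/152 family (3 tested) and the miR-26 pair 0 did, beside 32.7% of all tested miRNAs. The probe for miR-720, which matches a fragment of a transfer RNA, had 23907, 22059.7, 22683 and 21542 units in the cecal transfer libraries, against 22998, 33255, 20744 and 20795 in the antibiotic libraries. Its 33255 units in antibiotic replicate 2 stood above every other value, and it did not pass (log2 −0.09).

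**Figure D5:**
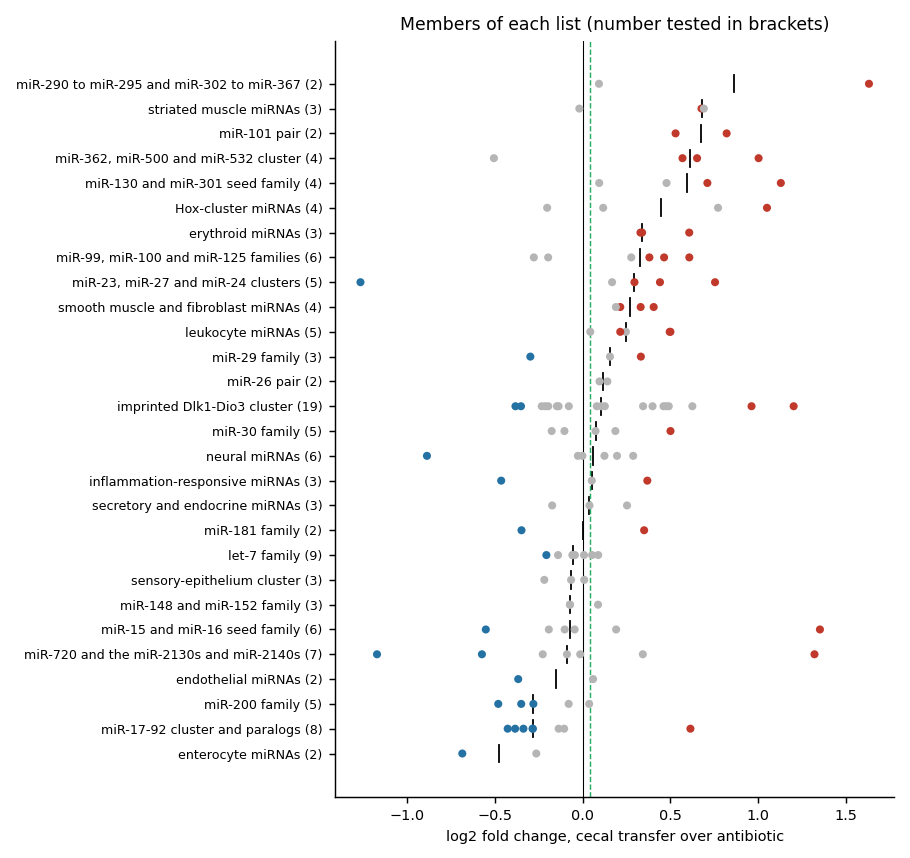
Log2 fold change (cecal transfer over antibiotic) of the tested members of each list with at least 2 of them, ordered by the list's median (black tick); red is higher, blue lower and grey not past the threshold, and the dashed line is the median of all 226 at 0.04. The miR-200 family lies mostly left of that line at a median of −0.28 and the miR-130/301 family right of it at 0.60.

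Control libraries placed the changes on a wider scale. Antibiotic against control gave 0 calls of 226 by limma (0%), where 34 had an unadjusted p under 0.05; edgeR gave 0 and DESeq2 3. By limma cecal transfer against control gave 30.1% called, and these comparisons share libraries with the one above. Of the 45 miRNAs higher after cecal transfer than after antibiotic, the antibiotic mean lay between the cecal transfer and control means in 24, the control mean lay between the others in 20, and the cecal transfer mean in 1, miR-1. Of the 29 that were lower, the control mean was the middle one in 18, the antibiotic mean in 9 and the cecal transfer mean in 2. Over all 226 tested miRNAs these numbers were 84 with antibiotic in the middle, 100 with control and 42 with cecal transfer. The called miRNAs were chosen because cecal transfer and antibiotic differed, which by itself tends to put these 2 means at the ends. Their numbers therefore cannot be read against those over all 226. For example, miR-10a averaged 1004 ± 64.8 units in cecal transfer, 499 ± 161 in antibiotic and 331 ± 77.6 in control libraries (SD, n = 4 each). miR-194 averaged 6478 ± 963 units in cecal transfer, 10403 ± 1322 in antibiotic and 12337 ± 3666 in control libraries. For both, cecal transfer was the extreme group. miR-21 averaged 2331 ± 196, 3211 ± 193 and 2689 ± 304 units in the same order, with control in the middle. For miR-1 the averages were 1191 ± 229.5, 763 ± 266 and 1351 ± 308 units, and antibiotic was the group that lay apart.

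Added over the tested miRNAs, differences of group means came to 19144 units among those with more signal after cecal transfer and to −18444 units among those with less. The scaling of the deposited table, which equalised the strongest probes, fixes this near balance. After miR-145, the gains were led by miR-125b-5p (8.07% of the total) and miR-143 (7.02%). The losses after miR-194 were led by miR-720 (10.3%, not past the threshold), miR-200c (7.15%) and miR-429 (6.52%). The loss of miR-720 depended on antibiotic replicate 2: without that library its log2 fold change was 0.068.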

How the data were processed

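Total RNA was measured with the NanoString nCounter mouse miRNA panel of version 1.5, per the labels' protocols. The authors deposited normalised signal per probe; the software behind it is not given in the sources used here. Each signal was a whole count times 1 factor per library (100% of values whole within 0.01 of a count), which equalised the sum of the 100 strongest probes. The design had foreseen this case, so limma 3.58.1 (R 4.3.3) was the test: log2(signal + 1), 1 model of the 3 groups over 12 libraries, a variance trend, contrast cecal transfer minus antibiotic, and adjusted p under 0.05 over 226 probes. Fold changes on this scale understate those of weak probes. Totals and background were compared by exact permutation over 70 splits. edgeR 4.0.16 and DESeq2 1.42.0 on recovered counts were alternatives. The fit was tested on simulated data.

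Named miRNAs are the 15 largest calls in each direction, called list members, the 3 strongest members of each list and the 10 strongest miRNAs; of the 110 so chosen, 18 uncalled ones with small changes are only counted, and miR-675-5p, miR-208b, miR-196b, miR-99a, miR-99b, miR-500, miR-195 and miR-199a-5p were named after their values were seen. The members and lists were chosen with earlier results of these data known. Replicate numbers follow accession order and pair no libraries.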

Additional observations from a re-analysis of the deposited data

Results flagged for a closer look

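In 16 of the 184 groups of 4 libraries examined, 1 library stood far from the other 3; chance alone flags about 1 in 20, or 9.2 of 184. After cecal transfer, high single values were those of miR-223 in replicate 2 (934 units, the others 311 to 336), miR-367 in replicate 1 (63.4, the others 35.8 to 38.1), miR-451 in replicate 1 (1579, the others 1142 to 1205), miR-142-5p in replicate 1 (75.3, the others 61.4 to 63.1), the miR-106a/miR-17 probe in replicate 2 (2157, the others 1870.4 to 1916) and miR-369-3p in replicate 3 (119, the others 107 to 109). Low single values were those of miR-137 in replicate 2 (75.5, the others 84.0 to 85.0) and miR-7b in replicate 4 (57.2, the others 69.8 to 70.4). After antibiotic, miR-10a in replicate 2 (741 units, the others 402 to 438), miR-1 in replicate 1 (1162, the others 615 to 651), miR-223 in replicate 3 (809.6, the others 305 to 335) and miR-125a-5p in replicate 1 (1666, the others 1338 to 1393) were high. Low there were let-7i (3638, the others 4036 to 4065), miR-10b (221, the others 292 to 298) and miR-25 (1919.6, the others 2158 to 2191), each in replicate 2, and miR-377 in replicate 1 (13.9, the others 27.6 to 29.9). Antibiotic replicate 2 accounts for 4 of the 8 single values after antibiotic.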

How the results depend on the processing

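No paired analysis was possible because the antibiotic and cecal transfer libraries share no replicate number in the labels. The count of 74 calls was 51 to 86 under the scaling, pseudocount, moderation, weighting, count-model, thinning and background alternatives and the filter of 100, and 55 to 82 (32 to 50 higher, 21 to 34 lower) with 1 library left out. Higher calls were 22 with median centring, 23 with quantile normalisation and 29 with DESeq2, in place of 45. Without a filter 161 of 566 passed, 50 higher and 111 lower; with the herpesvirus probes added, an alternative chosen after seeing the data, 160 passed, 110 of them lower, together with 5 of 33 herpesvirus probes, also lower. With log2 depth as a covariate 0 passed, 0 higher and 0 lower, and 72 of the 74 kept their sign; the cause was not tested. In the other alternatives each of the 74 that was tested kept its sign, and 34 (17 higher, 17 lower) kept their call in each one that tested them. The 17 higher include miR-367 and miR-377, which passed the filter through the cecal transfer libraries alone and had to differ. The depth difference of 190827 counts was 168765 to 206578 with 1 library left out. The background difference of −3.17 units was −4.70 for the mean of the herpesvirus probes (exact permutation p = 0.0286) and −4.12 to −2.35 with 1 library left out.

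Signs that turned belonged to small changes. With log2 depth in the model the log2 fold change was 0.0044 for let-7i, 0.10 for miR-10b, 0.081 for miR-15b, 0.00034 for miR-182, 0.076 for miR-19a, 0.067 for miR-200b, 0.042 for miR-20a/miR-20b, 0.24 for miR-375 and 0.22 for miR-376a. With median centring it was −0.026 for miR-126-3p, −0.033 for miR-146a and −0.042 for miR-223. After quantile normalisation it was −0.036 for miR-146a, 0.031 for miR-16, −0.043 for miR-196a, −0.049 for miR-210, −0.059 for miR-223, −0.024 for miR-26b and −0.030 for miR-29a. With array weights it was 0.00062 for miR-133a and −0.045 for miR-223, and with background subtraction 0.0057 for miR-133a. With 1 library left out, the range was −0.11 to 0.060 for miR-133a, −0.033 to 0.16 for miR-146a, −0.34 to 0.38 for miR-223 and −0.16 to 0.068 for miR-720; the cause was not tested.

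With 4 libraries a group, small changes of weak probes could not be resolved, and values near the background of 7.36 and 10.5 units carry little information on amount.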

Other observations

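Outside the tested set, the 340 mouse probes that did not pass the filter, 295 of which exceeded 32 units in no library, had a median log2 fold change of −0.47 when all probes were fitted together, with 4 higher and 82 lower after cecal transfer. The 33 herpesvirus probes had a median of −0.36 in the same fit, with 0 higher and 5 lower, so the mouse probes without measurable signal moved in the same direction as the background probes; what share of either follows from the depth was not tested.

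Called miRNAs that belonged to no list and were outside the naming rule, named here after their values were seen, numbered 9. miR-350 had 149.9, 138, 129 and 142 units in the cecal transfer libraries, against 95.7, 87.7, 94.2 and 109 in the antibiotic libraries (log2 fold change 0.53 with SE 0.11, adjusted p = 0.00381), with no overlap. miR-193b (0.71), miR-872 (0.52), miR-1961 (0.42), miR-129-3p (0.39) and miR-340-5p (0.37) were higher, and miR-1960 (−0.37), miR-1224 (−0.29) and miR-191 (−0.25) were lower after cecal transfer. For miR-193b every antibiotic value lay under the background limit, so how many-fold it rose is not resolved. It passed the filter in exactly 4 libraries, none of them from the antibiotic group. miR-1961 carries the let-7 seed GAGGUAG, and was higher while let-7i was lower.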
